A study of Oryza sativa with 4 samples.

Results

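At 10 rice loci, each named by a gene, neighbouring listed peaks were called more open in the Oshmgb1 mutant by edgeR. They were LOC_Os09g17680, LOC_Os09g20190, LOC_Os10g01500, LOC_Os10g04450, LOC_Os10g22630, LOC_Os10g24000, LOC_Os10g41829, LOC_Os11g45390, LOC_Os12g02210 and LOC_Os12g08040. At LOC_Os10g04450, LOC_Os10g41829 and LOC_Os12g02210 the neighbouring called peak belongs to another gene. A second test, DESeq2, and the authors' deposited calls each kept a pair of called neighbours at 5 of the 10 loci. The 10 genes were chosen from the same contrast that is described here, since neighbouring peaks had been called higher in Oshmgb1, so their differences between genotypes are given as a description, without p-values. They carried 23 of the 46114 listed peaks, and another 39 peaks of other genes lay within 20 kb of these on the same chromosome, giving 62 peaks in 10 windows. All 62 passed the filter on low counts. Accessibility was measured by ATAC-seq in rice (Oryza sativa), in the leaf blades of greenhouse seedlings kept for 28 days under a regime labelled HP. The 4 libraries were 2 of the Oshmgb1 mutant and 2 of wild-type (WT) plants, both genotypes under this one regime. The labels do not state the kind of mutation, the plant line or what HP stands for, and nothing in them ties the libraries to separate plants.

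In ATAC-seq the Tn5 transposase cuts DNA that is not covered by nucleosomes or other proteins, so the reads that pile up in a peak report how open that stretch of chromatin is. Open stretches usually mark promoters, enhancers and the ends of active genes, while transposons and silent genes are mostly closed. The HMGB family, to which OsHMGB1 belongs by name, holds abundant chromatin proteins with a high mobility group box that bind and bend DNA with little regard for its sequence. In nuclei pooled from whole leaf blades, a site that is more open in each nucleus and a site that is open in more nuclei cannot be told apart.

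Reads in listed peaks ranged from 7228483 to 10400677 per library. They made up 27.4% and 26.9% of the total behind the RPKM in WT and 26.1% and 25.9% in Oshmgb1, lower in both mutant libraries, and the part of this in the results was not tested. Levels are given as CPM, the reads of a peak scaled to a common library total by edgeR's TMM factors, and means with their SD over the 2 libraries of a genotype. Every log2 fold change sets Oshmgb1 against WT and carries the standard error (SE) of edgeR's quasi-likelihood fit over all peaks. Of all peaks 186 were called, 148 higher and 38 lower (79.6% higher), a split that became 133 higher and 88 lower (60.2% higher) with the library totals behind the RPKM. The 21 peaks of 13 genes described as chlorophyll a-b binding proteins summed to between 1016 and 1114 CPM in the 4 libraries. The 6 peaks of 3 Rubisco small subunit genes summed to between 291 and 303 CPM. The 7 peaks of 5 genes described as Casparian strip or root-specific proteins summed to between 96.8 and 121 CPM, and none of these marker peaks was called. The lists differ in their numbers of peaks and no other tissue was measured, so the sums do not test the leaf label. In each of the 3 lists both Oshmgb1 sums lay below both WT sums, for the chlorophyll a-b binding list at 1030 and 1016 CPM against 1081 and 1114 CPM, and their part in the results was not tested. The last list shows that peaks at genes named for the root are not absent from these leaf libraries.

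Both Oshmgb1 libraries stood above both WT libraries at 22 of the 23 peaks of the 10 genes, a pattern seen in 21.6% of all peaks. The log2 fold change had a median of 1.07 over the 23 peaks and ran from 0.10 to 2.10, against a median of -0.01 over all peaks. Of the 23 peaks, 19 were called higher by edgeR at a Benjamini-Hochberg adjusted p under 0.05 over all peaks, beside 0.321% of all peaks, and 0 were called lower, beside 0.0824%. The choice of the genes fixes these counts. The largest log2 fold change was at LOC_Os10g22630, and the smallest were in an intron of LOC_Os10g24000 and an exon of LOC_Os10g41829.

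**Figure D1:**
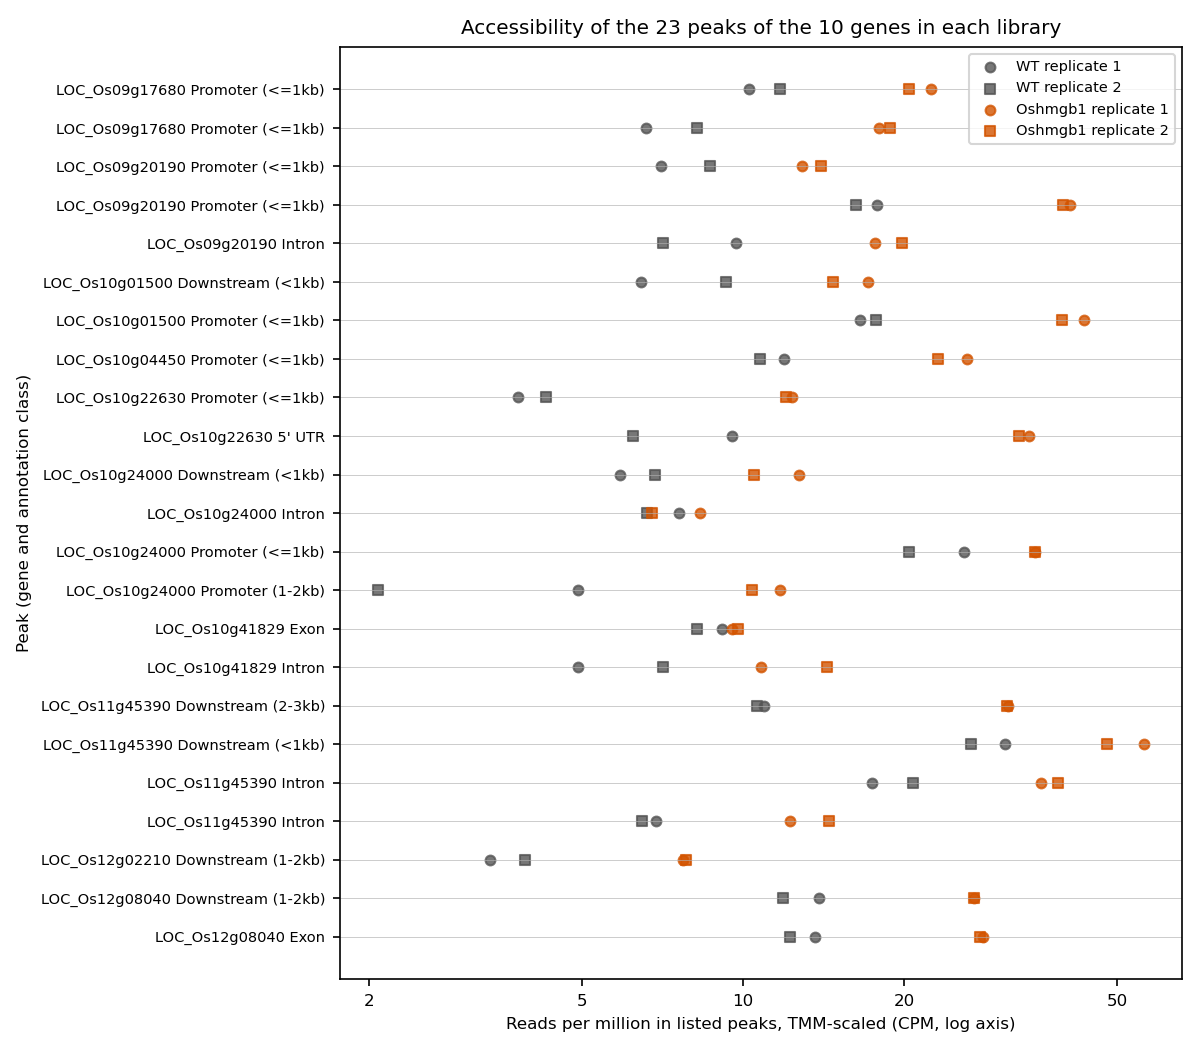
Accessibility in CPM (log axis) of the 23 peaks of the 10 genes, 1 row per peak, with 1 point per library: grey for WT, orange for Oshmgb1, circles for replicate 1 and squares for replicate 2. The Oshmgb1 points lie to the right of the WT points in 22 rows, and the groups overlap at the intron peak of LOC_Os10g24000.

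Only 1 of the 10 genes is described as a metabolic enzyme. LOC_Os09g17680 is listed as a probable NADH kinase, an enzyme that phosphorylates NADH to NADPH and so supplies reducing power. Its gene runs on the minus strand of chromosome 9 from 10810135 to 10812498, and 2 promoter peaks sit over and just before its start. The nearer one (10812385 to 10812975, centred 182 bp upstream) measured 10.2 and 11.7 CPM in the first and second WT libraries and 22.4 and 20.4 CPM in the first and second Oshmgb1 libraries. Both mutant libraries thus stood well above both WT libraries, at a log2 fold change of 0.96 ± 0.20 (SE). The second peak (10813055 to 10813602) begins 80 bp beyond the first and measured 6.59, 8.19, 17.9 and 18.8 CPM in the same order, with a log2 fold change of 1.30 ± 0.22. The gain here therefore covers a promoter stretch of 1217 bp. The nearest listed peak on one side lay 18098 bp away at LOC_Os09g17640 (0.16 ± 0.19), and on the other side 20788 bp away at BIP103, described as a proton pump interactor (0.40 ± 0.18).

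By symbol or domain, 3 of the genes belong to families known from ubiquitin ligases, the enzymes that tag proteins for degradation. LOC_Os11g45390 has the symbol WAV3, which in Arabidopsis names a RING-type ubiquitin ligase of root growth direction, and is described in rice by its von Willebrand factor type A domain. It has the longest row of gained peaks, 4 in succession over 9053 bp, from beyond the 3′ end of the gene to its second intron. The peak farthest downstream (chromosome 11, 27464876 to 27465592) measured 10.9 and 10.6 CPM in WT and 31.3 and 31.1 CPM in Oshmgb1, so that the libraries of a genotype nearly coincided. Its log2 fold change of 1.53 ± 0.18 exceeded those of the other 3, which were 0.86 ± 0.13 just downstream of the gene, 0.96 ± 0.15 in intron 4 and 0.99 ± 0.23 in intron 2. The called peaks thus lie beyond the 3′ end, over it and in the interior of this gene, and none of its listed peaks is a promoter peak. The next listed peak on the side of the gene start lay 18273 bp away. In between, 2 peak numbers are not in the list and were not analysed here, so whether the gain reaches the promoter cannot be read from these data. Summed over the 4 peaks, the level was 65.3 ± 1.10 CPM in WT and 134 ± 2.42 CPM in Oshmgb1.

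LOC_Os12g02210, with the symbol ATL32, is described as a C3HC4 zinc finger protein, the RING type found in the ATL family of membrane-bound ubiquitin ligases. Its only peak, downstream of the gene (chromosome 12, 688687 to 689018), is among the shallowest of the set, with 24 and 32 reads in WT and 81 and 67 in Oshmgb1. This came to 3.37, 3.91, 7.73 and 7.81 CPM in the same order, a log2 fold change of 1.09 ± 0.26. The adjoining gain belongs to another gene: a peak 1021 bp upstream of LOC_Os12g02240, which has no described function, measured 14.9 and 9.16 CPM in WT and 25.7 and 24.8 CPM in Oshmgb1 (1.08 ± 0.19). The gap between these 2 peaks was 6511 bp. This end of chromosome 12 is known as a recent duplicate of the end of chromosome 11, and the sources used here do not say how reads matching both were treated, so the values are uncertain. One listed chromosome 11 peak, at LOC_Os11g02230, has a gene that shares a description with a gene of this window. That window gene is LOC_Os12g02180, whose peak had 0.62 ± 0.24, and not LOC_Os12g02210 or LOC_Os12g02240. The chromosome 11 peak measured 9.26, 6.72, 7.45 and 7.46 CPM in the same order, with overlapping genotypes.

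LOC_Os10g41829 is an F-box gene, a family whose proteins choose the targets of SCF ubiquitin ligases. It has 2 listed peaks, and 1 of them was called. The peak over its first exon measured 9.12 and 8.19 CPM in WT and 9.55 and 9.80 CPM in Oshmgb1, a difference of 0.16 ± 0.23 on the log2 scale. An intron peak 631 bp further on measured 4.91 and 7.09 CPM in WT and 10.8 and 14.3 CPM in Oshmgb1 (1.05 ± 0.24). The WT and Oshmgb1 libraries lay close together at the first peak and apart at the second. The next peak, in an exon of the neighbouring F-box interaction domain gene LOC_Os10g41838, was called too, at 19.6 ± 0.063 CPM in WT and 31.5 ± 3.35 CPM in Oshmgb1 (0.69 ± 0.16). It was followed by a 3′ UTR peak of LOC_Os10g41850 at 0.63 ± 0.21, which was not called. The peak 752 bp beyond that, at the promoter of LOC_Os10g41850, had -0.18 ± 0.22.

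The 5 genes with no symbol have no described function in the deposited table, and they include the largest log2 fold change of all peaks. The 5′ UTR peak of LOC_Os10g22630 (chromosome 10, 11757828 to 11758637) ranked 1 of all 46114 peaks by log2 fold change. It had 68 and 51 reads in WT and 358 and 281 in Oshmgb1, or 9.54, 6.23, 34.2 and 32.8 CPM. This is a 4.28-fold difference, 2.10 ± 0.19 on the log2 scale. A promoter peak of the same gene, 101 bp away, measured 3.79 and 4.28 CPM in WT and 12.3 and 12.0 CPM in Oshmgb1 (1.59 ± 0.25) and ranked 6. The 2 peaks thus cover the start of the gene, with the genotypes far apart at both. On the other side, 15172 bp away, the peak downstream of DOF2, a Dof family transcription factor gene, had 14.3 ± 0.566 CPM in the WT libraries and 18.5 ± 0.165 CPM in the mutant (0.37 ± 0.19). The next listed peak, downstream of LOC_Os10g22660, was called higher as well, at 15.7 ± 0.422 CPM in WT and 29.4 ± 1.71 CPM in Oshmgb1 (0.91 ± 0.17). It lay 18273 bp away, and 3 peak numbers between them are not in the list and were not analysed here, so whether the gain is continuous cannot be read from these data.

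LOC_Os09g20190 and LOC_Os10g01500 each had their largest log2 fold change over the gene start, at the former by little. At LOC_Os09g20190 the peak over the start (chromosome 9, 12100406 to 12101434) measured 17.8 and 16.3 CPM in WT and 40.9 and 39.6 CPM in Oshmgb1, a log2 fold change of 1.24 ± 0.15. The intron peak after it had 1.17 ± 0.21, apart from the start peak by less than either SE. Without WT replicate 1 the intron peak had the larger value, 1.40 against 1.31. The promoter peak before the start peak had 0.77 ± 0.22 and was not called. The 3 peaks lie within 2679 bp, and the peaks on both sides, 7904 bp before at LOC_Os09g20180 and 8580 bp after at LOC_Os09g20200, had 0.14 ± 0.11 and 0.05 ± 0.23. The former is a strong peak, at 70.2 ± 4.72 CPM in WT and 77.3 ± 3.85 CPM in Oshmgb1, which makes it the strongest listed peak in the 10 windows. At LOC_Os10g01500 the promoter peak (chromosome 10, 321243 to 322272) measured 16.6 and 17.7 CPM in WT and 43.3 and 39.4 CPM in Oshmgb1 (1.27 ± 0.15). The peak downstream of this short gene had 6.45, 9.29, 17.1 and 14.7 CPM (1.01 ± 0.22). The neighbouring peak 12386 bp before them is in the first intron of ITPK1, the gene of an inositol tetrakisphosphate kinase, an enzyme of inositol polyphosphate synthesis, and it measured 34.5 ± 4.01 and 37.9 ± 3.19 CPM (0.14 ± 0.14).

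LOC_Os10g24000 was the least even of the loci. Its 4 peaks, from downstream of the gene to its distal promoter, had log2 fold changes of 0.86 ± 0.24, 0.10 ± 0.24, 0.61 ± 0.15 and 1.69 ± 0.27, of which the last 2 were called. The intron peak measured 7.58 and 6.60 CPM in WT and 8.31 and 6.76 CPM in Oshmgb1, with overlapping genotypes, while at the peaks on both sides of it the Oshmgb1 libraries stood above the WT libraries. The distal promoter peak (chromosome 10, 12299611 to 12299981) rests on 35 and 17 reads in WT against 123 and 89 in Oshmgb1. At 4.91 and 2.08 CPM the ratio between the 2 WT libraries was larger than at any other peak of the 10 genes (1.24 on the log2 scale), and the log2 fold change was 2.41 without WT replicate 1 and 1.18 without WT replicate 2. The gain went on 240 bp further at a peak assigned to LOC_Os10g24004, at 13.0 and 13.0 CPM in WT and 38.0 and 25.5 CPM in Oshmgb1 (1.30 ± 0.18). The next 3 peaks had 0.12, 0.05 and -0.20, the second of them in FRS3, of a FAR1-related family derived from transposases.

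LOC_Os10g04450 has a single peak over its start (chromosome 10, 2099457 to 2100364), which measured 11.9 and 10.8 CPM in WT and 26.3 and 23.1 CPM in Oshmgb1 (1.13 ± 0.19). The adjoining gain again belongs to a neighbour: an intron peak of LOC_Os10g04460, a hypothetical protein, measured 3.23, 3.67, 9.93 and 9.45 CPM, at 1.48 ± 0.26. Both peaks lie within 2245 bp. The peak 8831 bp before them, in an intron of a gene described as a benzyl alcohol benzoyltransferase, had -0.19 ± 0.17.

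LOC_Os12g08040 is the one member with a transposon symbol, TY3B-I, which in budding yeast names the polyprotein of a Ty3 retrotransposon. Its 2 peaks were alike in every library. The exon peak (chromosome 12, 4089332 to 4090267) measured 13.6 and 12.2 CPM in WT and 28.1 and 27.8 CPM in Oshmgb1, and the peak downstream, 288 bp away, measured 13.9, 11.9, 27.0 and 27.1 CPM. Their log2 fold changes were 1.11 ± 0.18 and 1.07 ± 0.18, a difference smaller than either SE. Retrotransposons have near-identical copies, and the sources used here do not say how reads with several matches were treated, so the values are uncertain. The nearest peak before them, 3931 bp away in an intron of LOC_Os12g08030, had 0.15 ± 0.12, and the BHLH123 promoter peak beyond it, at a gene of the bHLH transcription factor family, had -0.07.

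**Figure D2:**
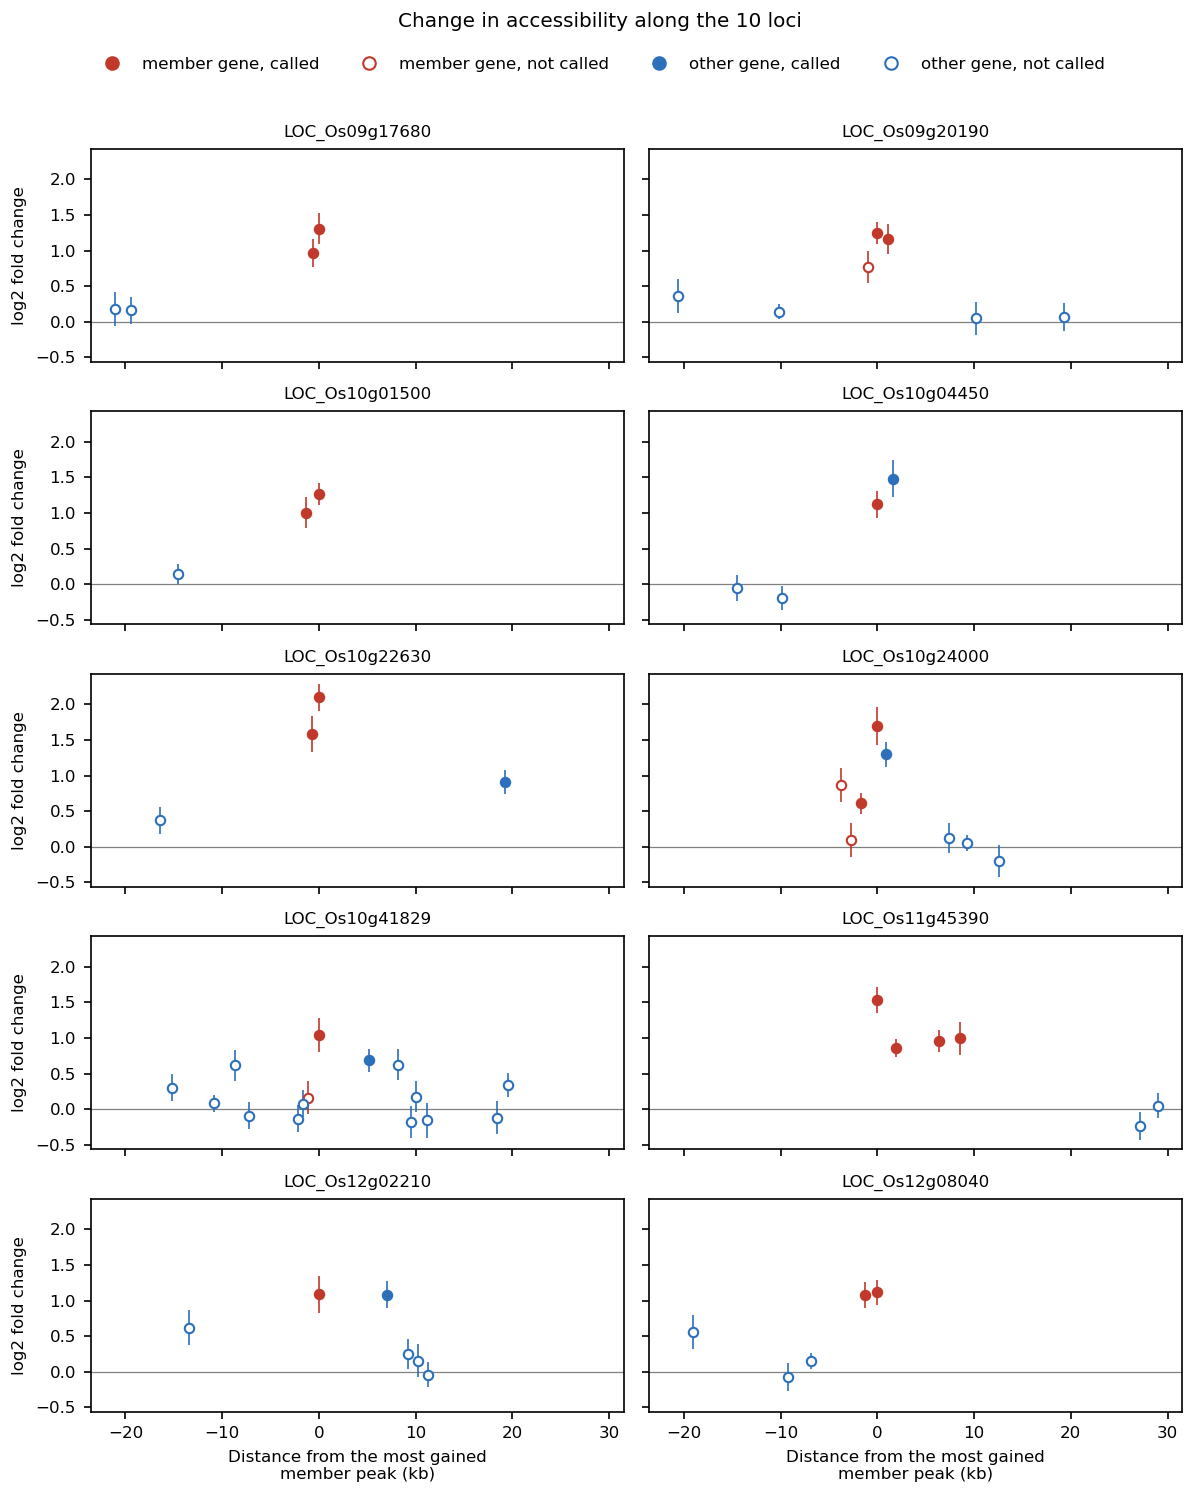
Log2 fold change of Oshmgb1 over WT (y axis, bars are ± 1 SE) of every listed peak in the 10 windows, against the distance in kb of its centre from the centre of the most gained peak of the named gene (x axis). Red points are peaks of the named gene, blue points are peaks of other genes within 20 kb, and filled points were called higher by edgeR. The distance axis is centred on a gained peak, and the filled points reach out to the peak of LOC_Os10g22660, whose log2 fold change is 0.91. The blue points have a median log2 fold change of 0.14.

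To show where each gain begins and ends, a run was taken as the stretch of neighbouring listed peaks around the most gained member peak in which every peak was at least 1.5-fold higher with both Oshmgb1 libraries above both WT libraries. Of all peaks, 2.68% met this. The runs held 27 peaks, 20 of the 10 genes and 7 of their neighbours, in rows of 2 to 4 peaks. They spanned 1217 to 3505 bp at 6 loci (LOC_Os09g17680, LOC_Os09g20190, LOC_Os10g01500, LOC_Os10g04450, LOC_Os10g24000 and LOC_Os12g08040). At LOC_Os10g41829 and LOC_Os11g45390 they spanned 8782 and 9053 bp, and at LOC_Os10g22630 and LOC_Os12g02210 they took in peaks 18273 and 13128 bp apart and spanned 20695 and 21087 bp. Within runs the gap between neighbouring peaks had a median of 1062 bp, against 3513 bp between all neighbouring listed peaks. Runs were drawn only inside windows of 20 kb around genes chosen for neighbouring gains, so a shorter gap is partly built in. With 2-fold in place of 1.5-fold, 17 peaks remained in runs, which then held 1 peak at LOC_Os10g41829, LOC_Os11g45390 and LOC_Os09g17680.

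The first listed peak outside a run was in every case less than 1.5-fold higher, or lower, in Oshmgb1. Its log2 fold change ran from -0.23 to 0.37 on the side of lower coordinates and from -0.45 to 0.40 on the side of higher ones. At 3 loci a peak outside the run lay close to it, 377 bp away at LOC_Os10g24000, where the peak beyond the flat intron peak was again 1.82-fold higher though not called, 631 and 752 bp away on the 2 sides at LOC_Os10g41829, and 1522 bp away on one side at LOC_Os12g02210. Elsewhere the nearest outside peak lay 3931 to 44028 bp away, and the end of the gain cannot be placed more closely. Because a run was drawn by the size of the change, the step at its edge is partly built in.

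The remaining 39 window peaks, at other genes, leaned higher in Oshmgb1, by less than the peaks of the chosen genes. Their log2 fold change had a median of 0.14, and 5 were called higher (0.321% of all peaks were) and 0 lower. The 5 were those of LOC_Os10g04460, LOC_Os10g22660, LOC_Os10g24004, LOC_Os10g41838 and LOC_Os12g02240 given above, all inside runs. At LOC_Os10g04450, LOC_Os10g41829 and LOC_Os12g02210 the called peak of the chosen gene had a called neighbour only at another gene. Those neighbours, at LOC_Os10g04460, LOC_Os10g41838 and LOC_Os12g02240 in this order, therefore took part in the choice. Both Oshmgb1 libraries were above both WT libraries at 17 of the 39 (43.6%, against 21.6% of all peaks) and below them at 2 (5.13%, against 21.6%). At 8 of the 39 (20.5%, against 2.68%) they were above with a difference of at least 1.5-fold. The windows were placed around gained peaks, and 7 of these 8 lie in runs. The shares of the 39 set beside those of all peaks are therefore a description, partly fixed by the choice. The largest and smallest differences among the 39 were 1.48 at LOC_Os10g04460 and -0.23 at LOC_Os11g45410, a pentatricopeptide repeat gene. Among the farthest peaks inside 20 kb the values ran from -0.20 to 0.91, and among the nearest beyond it from -0.23 to 0.51.

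Reads summed over each run and over the other listed peaks of its window are given as a description, since the definition of a run fixes that its sum is the higher one. Over the runs Oshmgb1 was between 1.67-fold (LOC_Os10g41829) and 2.72-fold (LOC_Os10g22630) of WT. Over the rest of the windows it was between 0.910-fold (LOC_Os10g04450) and 1.29-fold (LOC_Os10g22630). At LOC_Os11g45390, for example, the rest measured 35.4 and 41.7 CPM in WT and 33.9 and 40.1 CPM in Oshmgb1, with overlapping genotypes. With 2 libraries against 2 an exact permutation test cannot give a two-sided p below 0.333, so no such test was made of the sums.

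**Figure D3:**
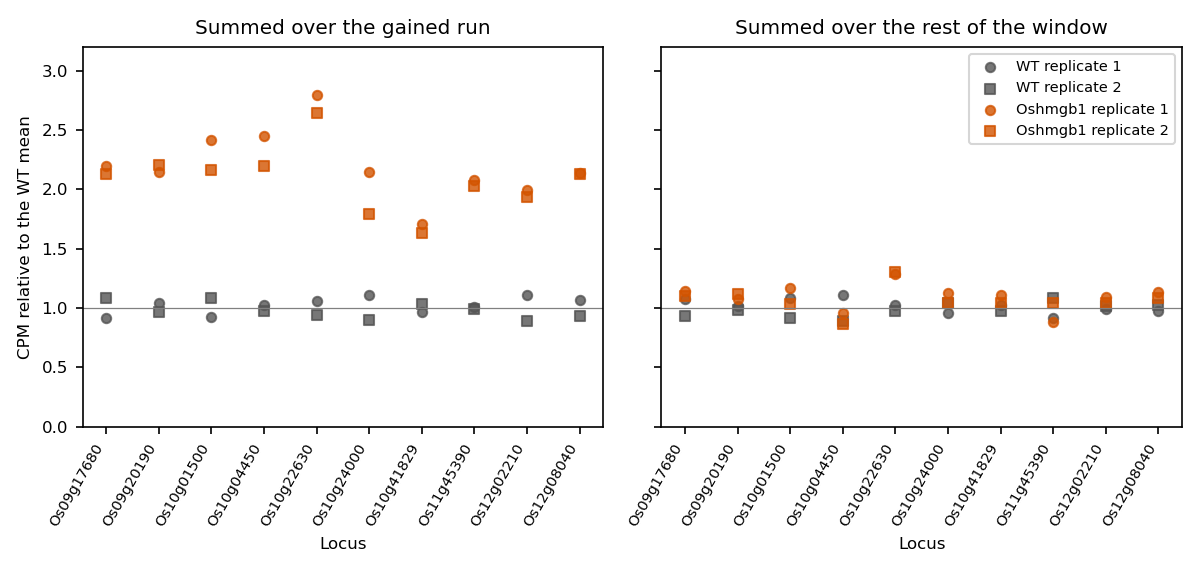
Summed accessibility per library divided by the WT mean of the same sum (y axis), for the peaks of each run (left) and for the other listed peaks of the same window (right), at the 10 loci (x axis). Circles are replicate 1 and squares replicate 2, grey for WT and orange for Oshmgb1. In the left panel the Oshmgb1 means run from 1.67 to 2.72, and in the right panel from 0.910 to 1.29.

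In WT most peaks of the 10 genes were among the least open of the list. Per kilobase of peak, the 23 peaks had a median level of 14.1 CPM per kb in WT and 29.9 CPM per kb in Oshmgb1, while the medians over all peaks were 25.7 and 25.8 CPM per kb. Their median percentile among all peaks was 2.06 in WT and 66.6 in Oshmgb1. The peak with the highest level in WT was the proximal promoter of LOC_Os10g24000, at percentile 49.6. In Oshmgb1 the highest was the distal downstream peak of LOC_Os11g45390, at percentile 89.5. A low WT level is partly a product of the choice by the difference, and all 148 peaks called higher had a median percentile of 0.669 in WT and 56.4 in Oshmgb1.

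**Figure D4:**
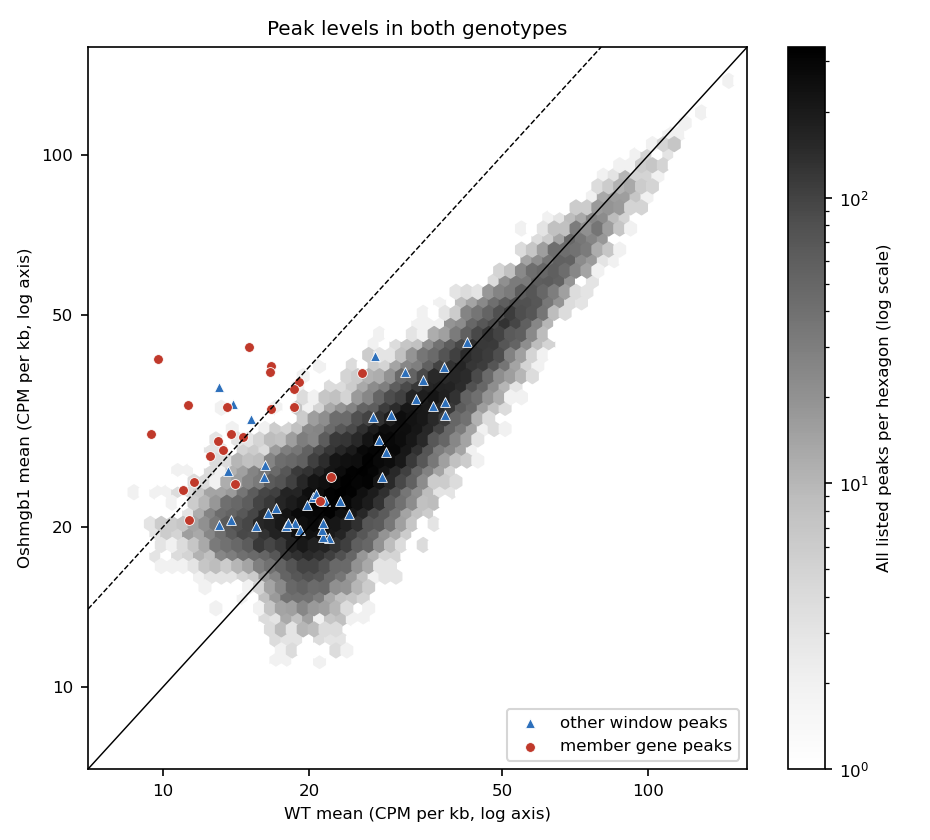
Mean level in Oshmgb1 (y axis) against WT (x axis), in CPM per kb on log axes, for all listed peaks (grey hexagons, darker for more peaks), the 23 peaks of the 10 genes (red circles) and the 39 other window peaks (blue triangles). The solid line marks equal levels and the dashed line a 2-fold higher level in Oshmgb1. Most red circles lie left of the grey mass, near or above the dashed line, at a median of 14.1 CPM per kb in WT.

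The length and annotation class of the peaks were not criteria of the choice. The annotation did assign the peaks to genes, and length can affect read numbers and so the calls. The 23 peaks had a median length of 590 bp, against 559 bp over all peaks and 466 bp over the 148 peaks called higher. By the authors' annotation, 9 were promoter peaks (39.1%, against 35.1% of all peaks), 6 lay downstream of a gene (26.1%, against 11.7%), 5 in introns (21.7%, against 18.0%), 2 in exons (8.70%, against 20.6%) and 1 in a 5′ UTR (4.35%, against 6.97%). Of all 148 peaks called higher, 21.6% lay downstream of a gene. Replicate spread and read numbers enter the calls by which the genes were chosen and are given as a description. The 2 WT libraries differed by a median of 0.22 on the log2 scale at these peaks and by 0.19 at all peaks, and the 2 Oshmgb1 libraries by 0.12 and 0.17. Reads per peak ran from 17 to 220 in the WT libraries and from 58 to 587 in the Oshmgb1 libraries, so the WT levels carry the larger counting error.

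In the fit over all peaks, adjoining higher calls were found at these loci and nowhere else in the list, but with library totals alone 1 more group was called, at LOC_Os05g34920, and further groups appeared without WT replicate 1 (LOC_Os12g01930 with LOC_Os12g01955), without Oshmgb1 replicate 1 (LOC_Os07g46380 to LOC_Os07g46400) and without WT replicate 2 (17 groups in all). Of the 148 peaks called higher, 24 had a called neighbour, and all 24 lay in the 10 windows. The loci were chosen by such neighbouring calls in these same data. That these calls lie at the loci and on their chromosomes is therefore a description. No gene outside the windows had 2 neighbouring called peaks, so none was named as alike by this rule of calls. The 10 loci lie on chromosomes 9, 10, 11 and 12, with 2, 5, 1 and 2 of them. These chromosomes hold 24.1% of all peaks and 73 of the 148 higher calls (49.3%). They were grouped because the loci lie on them, and the 73 include the 24 calls with a called neighbour. Higher calls numbered 16, 21, 15 and 21 on chromosomes 9 to 12. Chromosome 5 had more than any of these, 23, and the other chromosomes had 3 to 13. Runs of 2 or more neighbouring peaks by the same rule of size, but with exactly 1 called peak, numbered 17 in the whole list, 10 of them on these 4 chromosomes. Some matched members in size, with log2 fold changes of 0.92 to 1.09 at LOC_Os12g28020 and 0.91 to 1.22 at LOC_Os03g44240. Others were smaller, such as 0.63 to 0.77 at LOC_Os11g31740 with LOC_Os11g31770. The run of the member LOC_Os10g41829 had 0.63 to 1.05. The median log2 fold change of a chromosome ran from -0.03 to 0.04 over the 12 chromosomes. Of the peak numbers, 80.3% are listed, so peaks that adjoin in the list can have unlisted ones between them.

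Of the 19 called peaks of the 10 genes, 13 were also called by DESeq2 (0.0967% of the 43431 peaks to which it gave an adjusted p), 13 in the authors' deposited table (0.0889%) and 13 by edgeR whichever library was left out (0.0889%), and these were the same 13 peaks. All these calls come from the libraries by which the genes were chosen, so their overlap is a description and not independent evidence. The other 6 were the downstream peak of LOC_Os10g01500, the proximal promoter peak of LOC_Os10g24000, the intron peak of LOC_Os10g41829, the intron 2 peak of LOC_Os11g45390, the peak of LOC_Os12g02210 and the nearer promoter peak of LOC_Os09g17680. Pairs of neighbouring called peaks remained at 5 loci with DESeq2 and at 5 with the authors' deposited table, and were lost in both at LOC_Os10g01500, LOC_Os10g04450, LOC_Os10g41829, LOC_Os12g02210 and LOC_Os09g17680. DESeq2 gave no adjusted p to 2 of the peaks concerned, those of LOC_Os10g04460 and LOC_Os12g02210. LOC_Os10g41829 and LOC_Os12g02210 also lost the pair without WT replicate 1, Oshmgb1 replicate 1 or Oshmgb1 replicate 2, LOC_Os10g01500 without WT replicate 1 or Oshmgb1 replicate 1, and LOC_Os09g17680 without Oshmgb1 replicate 1.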

How the data were processed

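The submitters' processing notes name ChIPseeker 1.16.1, MACS2 2.1.2, Bowtie2 2.4.4, fastp 0.23.0 and bcl2fastq 2.19. The sources used here do not state their settings, the genome build, the Tn5 shift or whether duplicates were removed. A missing shift would move cut sites by a few bases, and duplicates would raise counts without adding molecules. Coordinates are those of the deposited table.

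The read counts deposited by the authors, per merged peak and library, entered the test. The deposited RPKM served only to derive library totals. The authors' log2 fold change gave the direction of their calls, and the deposited p-value and FDR gave an alternative set of calls. No column of another sample was found.

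Counts were fitted over all 46114 peaks in R 4.3.3 with edgeR 4.0.16 (TMM, default expression filter, which removed 0 peaks, quasi-likelihood test, no covariates), with DESeq2 1.42.0 as the alternative. SEs come from the fold change and F statistic. The fit was tested on simulated data. Figures used matplotlib 3.10.9 in Python 3.11.15. The libraries of a genotype were not duplicates (chi-square over degrees of freedom 2.50 in WT and 2.25 in Oshmgb1), and p-values reflect only the possibly technical spread between these libraries.

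The genes, windows, lists and rules for named genes (all members, the peaks around each run, called flank peaks and flank extremes) were chosen with earlier results of these data known. The RefSeq gene table matched 0 of the 10 locus identifiers, and no genome of the build was used, so no sequence is shown.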

Additional observations from a re-analysis of the deposited data

How the results depend on the processing

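Under the 11 alternatives tried, the median log2 fold change of the 23 peaks (1.07) moved by less than the median SE of these peaks. The medians of the 10 locus sums (1.10) and of the flank sums (0.16) moved by less than the spread between replicates. With 1 library left out these medians ran, in this order, from 1.04 to 1.10, 1.06 to 1.10 and 0.14 to 0.23. Among the peaks of the 10 genes and the called flank peaks, the one sign change was at the uncalled intron peak of LOC_Os10g24000, with a log2 fold change of -0.058 without Oshmgb1 replicate 1; the cause was not tested.

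Calls depended more on the settings. All peaks called numbered 186, with 45 by DESeq2, 47 by the FDR of the authors' deposited table and 94 with at least 50 reads in every library, and 75 to 530 with 1 library left out (530 without WT replicate 2, 103 and 75 without Oshmgb1 replicates 1 and 2). Higher calls were 79.6% of these, and 60.2% (133 higher, 88 lower) with the totals behind the RPKM. Peaks of the 10 genes called numbered 19, with 12 of the 15 left by the 50-read filter and 15 to 17 with 1 library left out. Flank calls numbered 5, with 3 by DESeq2 and 3 to 6 with 1 library left out. Runs held 27 peaks, and 17 at 2-fold. Loci with 2 neighbouring called peaks, counted under each setting after seeing the data, numbered 10, with 5 by DESeq2, 5 by that FDR, 4 with the 50-read filter, and 6 to 10 with 1 library left out. The 50-read filter took out peaks of the loci it lost before any test. Of the called window peaks that it kept, 0 lost their call. With library totals alone 1 more group was called, at LOC_Os05g34920, outside chromosomes 9 to 12. Without WT replicate 2 there were 17 groups, 12 of them on these chromosomes, without WT replicate 1 there was 1 outside the 10 loci (LOC_Os12g01930 with LOC_Os12g01955), and without Oshmgb1 replicate 1 there was 1 (LOC_Os07g46380 to LOC_Os07g46400). DESeq2 gave no adjusted p for 2 of the 24 called window peaks.

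Replicate numbers share only a number between genotypes: with them as a block 179 peaks were called, 146 of them higher, with 19 at the 10 genes, 5 in flanks and 10 loci. The deviations of same-numbered libraries correlated at -0.04 across peaks. The WT levels rest on 17 to 220 reads per peak and library.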
